A study of Mus musculus with 18 samples.

Results

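A-241 and A-485 are chemically distinct small molecules that block the catalytic lysine acetyltransferase (KAT) domain of the paralogues P300 and CBP. Here the inhibitors were compared with each other, without IFNγ and without a shared control, in 6 of the 18 RNA-seq libraries of AT3 cells, a mouse mammary carcinoma cell line used as a model of triple-negative breast cancer. The members were chosen by their labels alone: 3 libraries of cells given A-241 (250 nM) and 3 of cells given A-485 (1000 nM), each harvested after 1 h of pre-treatment and a further 2 h in vehicle, which gives 3 h with the inhibitor. The question was which genes of unstimulated cells differ between the inhibitors. Since the doses differ 4 to 1, compound and dose cannot be told apart in any value below.

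The other libraries used for reference were 3 of DMSO (vehicle, 3 h), 3 of A-241 with IFNγ and 3 of A-485 with IFNγ, where the inhibitor was given for 1 h and recombinant IFNγ was then added for 2 h, and 3 of IFNγ alone. All groups are the same line in culture, with no genetic change and no further agent. Triplicates are called technical in the study's methods and biological in the sample labels, so p-values measure the spread between libraries, which may be technical. QuantSeq reads fall at the 3′ end of polyadenylated transcripts, and the files hold 1 raw count per gene and library. Depth was 3417167 to 7856830 counts per library over all 18 and 4280273 to 5450793 in the 6 compared.

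P300 and CBP place acetyl groups on histones, among them H3K27ac at active enhancers and promoters, and on many other proteins. Transcripts that turn over quickly and depend on enhancers, such as those of transcription factors and secreted signals, are known to fall within hours when this activity is blocked. P-TEFb is the kinase that releases paused RNA polymerase II, and it is held inactive by HEXIM1, whose transcript is a known marker of interference with transcription.

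Of the 11964 genes tested, A-241 gave a lower level than A-485 in 42 (0.351% of genes tested) and a higher level in 2 (0.0167%), by edgeR's quasi-likelihood test at a Benjamini-Hochberg adjusted p under 0.01. All 42 lower genes were protein coding, and their median log2 fold change (A-241 minus A-485) was -1.83, against 0.01 over all genes. The difference was over 4-fold in 19 of them, 2- to 4-fold in 19 and under 2-fold in 4. In all 42 the 3 A-241 libraries lay below the 3 A-485 libraries, as did 11.3% of all genes tested. The same 6 libraries chose these genes, so their separation is a description and no further support. The genes with the lowest fitted fold changes were those of the matrix polysaccharide synthase Has2, the chemokine Cxcl5, the transcription factor Myc and the growth factor antagonists Sostdc1 and Fst. The 2 higher genes were Cpeb4 and Hexim1. These counts come from a fit in which all 18 libraries share an estimate of the spread, with a common biological coefficient of variation of 0.263. With only the 6 libraries in the fit the coefficient was 0.127, and 111 genes were lower (1.00% of the 11046 tested there) and 10 higher (0.0905%). That fit also called 40 of the 42 lower genes and both higher ones, but not Prlr and Lhfpl2.

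**Figure D1:**
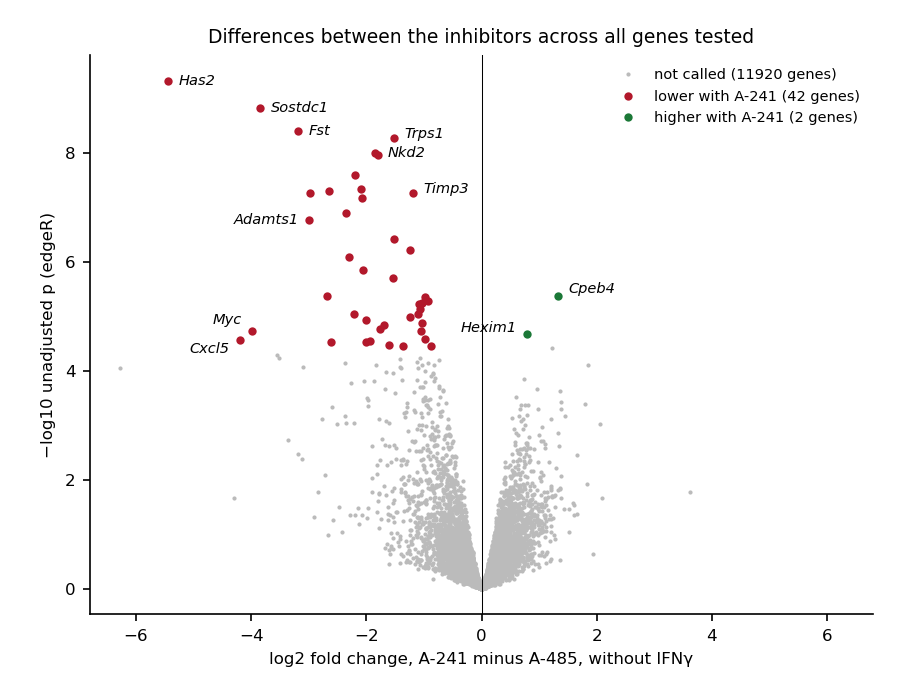
Each point is 1 of 11964 genes, with the log2 fold change of A-241 minus A-485 without IFNγ on the x axis and −log10 of the unadjusted edgeR p on the y axis. The 42 genes called lower with A-241 (red) are on the left, from Has2 at -5.45 to under 2-fold, and the 2 called higher (green) are Cpeb4 and Hexim1.

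Some called genes act in the extracellular matrix. Has2 (chr15:56665627-56694539, minus strand, GRCm38) encodes a hyaluronan synthase. Its level, in CPM (counts scaled by library size and TMM factor), was 0.00, 0.200 and 0.211 with A-241 and 9.0, 6.49 and 5.58 CPM with A-485, and 10.3, 10.3 and 12.1 with DMSO. The A-241 libraries held 2 Has2 reads in all and the A-485 libraries 109, so that the level with A-241 was 1.96% of that with A-485 (95% exact interval 0.234 to 7.24, counting error only; adjusted p = 5.64e-06, edgeR). Has2 shares exon bases with its antisense gene Has2os, and reads over both were counted for both.

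Other matrix genes differed less. Adamts1, which encodes a secreted protease of proteoglycans, had 10.3, 13.6 and 9.48 CPM with A-241 and 86.3, 89.3 and 91.6 CPM with A-485, a 7.98-fold difference (95% interval 4.82 to 13.2; adjusted p = 0.000147, edgeR). Its relative Adamts5 was 4.16-fold lower (adjusted p = 0.00093, edgeR). Thbs1, which encodes the matrix glycoprotein thrombospondin-1, was 4.91-fold lower (adjusted p = 0.000569, edgeR). Timp3, an inhibitor of metalloproteinases, was abundant in every library, with 167, 191 and 166 CPM with A-241, 421, 401 and 381 CPM with A-485 and 977, 894 and 1057 CPM with DMSO. The groups did not overlap, and Timp3 was 2.29-fold lower with A-241 (95% interval 1.91 to 2.76; adjusted p = 6e-05, edgeR). Timp3 shares exon bases with Syn3, and Thbs1 with Gm29233. Of the list of extracellular matrix and protease genes, 16 of 27 were tested. Of these, 3 were lower (Has2, Thbs1 and Timp3), 0 were higher and 13 did not pass, where 0.351% of all genes were lower. The median over the list was -0.53 and 14 of the 16 were below 0, against 49.1% of all genes. Fibronectin (Fn1) had a log2 fold change of -0.35 (95% interval -0.65 to -0.05, adjusted p = 0.498, edgeR) and separated libraries.

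Others encode secreted signals and their antagonists. Cxcl5, which encodes a chemokine that attracts neutrophils, is at chr5:90759360-90761624 (plus strand). It had 4.21, 3.00 and 3.16 CPM with A-241 and 63.9, 58.4 and 69.7 CPM with A-485. The groups were far apart, and the fold was 18.4 (95% interval 6.33 to 53.5; adjusted p = 0.00862, edgeR). The DMSO libraries held 78.8, 81.6 and 15.5 CPM, so that DMSO replicate 3 was below the A-485 libraries. The adjusted p for Cxcl5 was 1.15e-07 with only the 6 libraries fitted, and it missed the threshold when any 1 of the 6 was left out of the fit of all libraries. The neighbouring chemokines Cxcl2 and Cxcl1 had log2 fold changes of -3.52 and -3.36 with separated libraries but did not pass (adjusted p = 0.0145 and 0.121, edgeR). Their levels were 0.421 CPM or less for Cxcl2 and 1.05 CPM or less for Cxcl1 in each A-241 library. Of 13 chemokine and cytokine genes tested of 24, 1 was lower (0.351% of all genes), 10 were below 0 (49.1%) and the median was -0.71.

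Fst encodes follistatin, which binds and neutralises activins, and Sostdc1 encodes an antagonist of BMP and Wnt signals. Fst (chr13:114452290-114458951, minus strand) had 2.1, 1.60 and 2.53 CPM with A-241, 19.4, 18.7 and 18.8 CPM with A-485 and 35.6, 32.8 and 27.0 CPM with DMSO. The 3 groups did not overlap, and the inhibitors differed 9.06-fold (95% interval 6.02 to 13.6; adjusted p = 1.59e-05, edgeR). Sostdc1 (chr12:36314139-36318452, plus strand) had 0.210, 1.00 and 1.26 CPM with A-241 and 10.6, 13.2 and 12.8 CPM with A-485, the latter beside 16.4, 13.3 and 12.8 CPM with DMSO. Over the 3 libraries these were 12 reads against 184, and the fitted log2 fold change was -3.84 (SE 0.31, adjusted p = 9.07e-06, edgeR). Of the list of BMP and TGF-beta ligands, antagonists and targets, 15 of 23 genes were tested. Fst and Sostdc1 were lower (0.351% of all genes were) and 13 did not pass. The list's median was -0.77, 12 of 15 were below 0 (49.1% of all genes were), and in 9 of 15 the A-241 libraries lay below the A-485 libraries (11.3% of all genes). With only the 6 libraries fitted, 4 of the list were lower (1.00% of all genes tested there).

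Of the Wnt pathway, the receptor Fzd7 and the Dishevelled-binding antagonist Nkd2 were both lower. Nkd2 had 42.9, 38.3 and 39.8 CPM with A-241, 124, 135 and 164 CPM with A-485 and 295, 235 and 189 CPM with DMSO. The 3 groups were in order without overlap, and the difference for Nkd2 was 3.49-fold (adjusted p = 2.2e-05, edgeR). Fzd7, chosen after its values were seen, held 16 reads with A-241 and 65 with A-485, a level of 26.3% (95% exact interval 14.2 to 45.9, counting error only). Neither gene was in the list of Wnt and Notch genes, of which 14 of 25 were tested. Of these 14, 0 passed, where 0.351% of all genes were lower and 0.0167% higher. In that list 12 of 14 were below 0 (49.1% of all genes), 7 had separated libraries with A-241 lower (11.3%) and the median was -0.73. The Notch ligand Jag1 had a log2 fold change of -2.38 (adjusted p = 0.0166, edgeR), and the receptor Notch1 -0.93 (adjusted p = 0.0564, edgeR). At an unadjusted p under 0.05, 554 genes were lower and 421 higher over all genes.

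**Figure D2:**
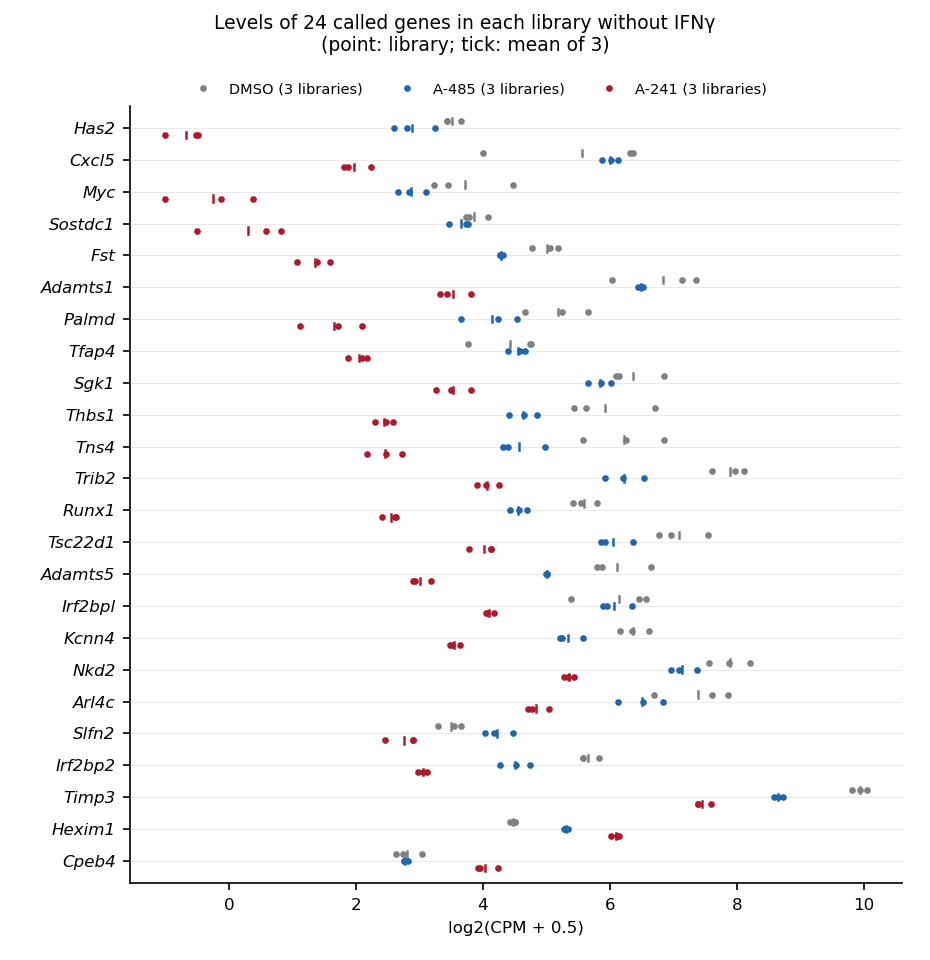
Levels of 24 called genes that the rule names, as log2(CPM + 0.5) on the x axis, 1 point per library and a tick at the mean of 3 libraries, for A-241 (red), A-485 (blue) and DMSO (grey) without IFNγ. Red points lie left of blue points in every gene but Hexim1 and Cpeb4, and for Slfn2 the blue points lie right of the grey.

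Several called genes encode transcription factors, and the lists of such factors follow after them. Myc (chr15:61985391-61990374, plus strand), which drives growth and ribosome production, had 0.421, 0.801 and 0.00 CPM with A-241 and 8.12, 6.68 and 5.81 CPM with A-485. These were 6 reads against 106, a level with A-241 of 6.04% of that with A-485 (95% exact interval 2.2 to 13.6, counting error only; adjusted p = 0.00649, edgeR). The call for Myc was lost with any 1 of the 6 libraries left out. Tfap4, a basic helix-loop-helix factor, was 6.25-fold lower, with 3.79, 4.01 and 3.16 CPM against 24.9, 23.5 and 20.4 CPM (adjusted p = 6e-05, edgeR). Runx1, a factor of mammary and blood lineages, had 4.84, 5.61 and 5.69 CPM with A-241, 25.4, 23.1 and 20.9 CPM with A-485 and 46.0, 42.2 and 55.3 CPM with DMSO. Its groups did not overlap and it was 4.29-fold lower (95% interval 3.11 to 5.91; adjusted p = 6e-05, edgeR). Trps1, a GATA-type repressor of breast epithelium chosen after its values were seen, had 37.2, 41.7 and 43.8 CPM against 120, 108 and 124 CPM, a 2.87-fold difference (95% interval 2.35 to 3.5; adjusted p = 1.59e-05, edgeR).

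Irf2bpl and Irf2bp2, of the IRF2-binding protein family, were lower by 4.04- and 2.88-fold. The leucine zipper gene Tsc22d1 was 4.20-fold lower. Osr1, a zinc finger factor, and Erf, a repressor of the ETS family, were 6.13- and 2.04-fold lower, and both were picked with their values in view. Of 19 mammary and breast tumour transcription factors tested of 22, Runx1 was the 1 that passed (0.351% of all genes did), 18 were below 0 (49.1%), 11 had separated libraries with A-241 lower (11.3%) and the median was -0.65. Ehf (-1.40), Id4 (-1.16) and Sox4 (-1.01) had separated libraries and adjusted p of 0.0175, 0.0564 and 0.0291 (edgeR). The remaining gene was above 0. Of the Krüppel-like factors 0 of the 10 tested passed by edgeR (0.351% of all genes were lower and 0.0167% higher). In 8 of them all A-241 libraries lay below all A-485 libraries (11.3% of all genes), and the list's median was -0.77. The other two had all A-241 libraries above all A-485 libraries (11.2% of all genes). The smallest p-values were those of Klf2 (1.84), Klf13 (-0.89) and Klf3 (-1.29), with adjusted p of 0.0167, 0.0416 and 0.0466 (edgeR). With the 6 libraries alone 2 of the list were lower (1.00% of all genes tested there) and 1 higher (0.0905%).

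Of 17 immediate early genes tested, Myc was lower (0.351% of all genes were) and 16 did not pass, with 7 below 0 (49.1%) and a median of 0.25. Egr1, Jun and Atf3 had log2 fold changes of 0.80, 0.53 and 1.32 with A-241 libraries above A-485 libraries, and adjusted p of 0.0622, 0.0652 and 0.10 (edgeR). In 6 of the 17 the A-241 libraries lay above the A-485 libraries (11.2% of all genes) and in 2 below (11.3%). With only the 6 libraries fitted, 1 of the list was lower (1.00% of all genes tested there) and 1 higher (0.0905%). Of 10 genes tested of the Myc, Max and Mxd network, Myc passed as lower (0.351% of all genes did). The Myc antagonists Mnt and Mxd1 had -1.78 and 1.10 (adjusted p = 0.067 and 0.142, edgeR).

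Other called genes encode signalling proteins, channels and junction proteins. Sgk1, a kinase induced by serum and glucocorticoids, had 9.04, 13.6 and 10.7 CPM with A-241 and 64.1, 57.4 and 49.7 CPM with A-485, a 5.12-fold difference (adjusted p = 0.000117, edgeR). The pseudokinase Trib2 was 4.6-fold lower, with 18.5, 14.4 and 16 CPM with A-241, 73.4, 59.9 and 92.2 CPM with A-485 and 276, 194 and 249 CPM with DMSO (adjusted p = 4.37e-05, edgeR). The DMSO level of Trib2 was above those with both inhibitors. Kcnn4, a potassium channel opened by calcium, was 3.61-fold lower with 12, 10.6 and 11 CPM against 36.5, 37.4 and 47.4 CPM (adjusted p = 2.2e-05, edgeR). Gja1, which encodes a connexin of gap junctions and was chosen after its values were seen, was 2.13-fold lower. Palmd, a membrane-associated protein, and Tns4, a protein of focal adhesions, were 6.4- and 4.65-fold lower, and the small GTPase Arl4c was 3.23-fold lower. The prolactin receptor gene Prlr, the lysophospholipid transporter Mfsd2a, Ripor2, the Rab exchange factor Rin2, Mex3a, which encodes an RNA-binding protein, Lhfpl2 and the hexokinase Hk2 were lower by 3.06-, 4.02-, 3.39-, 2.37-, 2.08-, 2.04- and 2.14-fold, and these 7 were picked with their values in view.

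In 15 of the 42 lower genes the A-485 libraries overlapped those of DMSO. In 2 they lay above them, as did 7.07% of all genes tested. These 17 include Cxcl5, Sostdc1, Adamts1, Tfap4, Irf2bpl and Arl4c from above. In each of these the overlap rested on DMSO replicate 3, without which the A-485 libraries lay below DMSO. Without that library, a choice made after the data were seen, 8 of the 42 overlapped, among them Ripor2, Erf and Hk2 from above. Of the 17, 5 others are given here, chosen after their values were seen. They were Tsr1 and Grwd1, which act in ribosome assembly, the translation initiation factor Eif1a, the mitochondrial import chaperone Timm10 and Pprc1, a coactivator of genes for mitochondria. Tsr1 had 59.5, 55.9 and 57.5 CPM with A-241, 121, 144 and 144 CPM with A-485 and 159, 127 and 129 CPM with DMSO, and was 2.36-fold lower with A-241 (95% interval 1.88 to 2.97; adjusted p = 0.000453, edgeR). Grwd1 had 41.4, 37.5 and 33.7 CPM with A-241, 61.2, 69.9 and 76.9 CPM with A-485 and 58.0, 57.8 and 51.1 CPM with DMSO. For Grwd1 the A-485 libraries lay above all DMSO libraries and the A-241 libraries below them, with a 1.85-fold difference between inhibitors (adjusted p = 0.00968, edgeR). Eif1a, Timm10 and Pprc1 were 1.98-, 1.98- and 2.07-fold lower. As means, the levels of Tsr1, Pprc1 and Eif1a with A-485 were 98.5%, 100.1% and 95.2% of those with DMSO, and with A-241 they were 41.7%, 48.5% and 48.0%. Tsr1 shares exon bases with Srr and Pprc1 with Ldb1, and Eif1a has a close paralogue, so part of their reads may belong to other genes.

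The stretch around the start of Tsr1 and Grwd1 is shown because both hold the letters CACGTG, the E-box bound by Myc and Max. Promoter sequences (RefSeq, GRCm38.p6, 250 bases before to 50 after the start) were matched by symbol for 27 of the 42 lower genes. Capitals mark CACGTG and, on either strand, the GC box GGGCGG. The Tsr1 window is chr11:74897830-74898129 on the plus strand and that of Grwd1 chr7:45830740-45831039 on the minus strand. The E-box begins 25 and 35 bases after these RefSeq starts. Both RefSeq starts lie downstream of the gene's start in the annotation used for coordinates above (74898071 for Tsr1, 45830944 for Grwd1).
Tsr1: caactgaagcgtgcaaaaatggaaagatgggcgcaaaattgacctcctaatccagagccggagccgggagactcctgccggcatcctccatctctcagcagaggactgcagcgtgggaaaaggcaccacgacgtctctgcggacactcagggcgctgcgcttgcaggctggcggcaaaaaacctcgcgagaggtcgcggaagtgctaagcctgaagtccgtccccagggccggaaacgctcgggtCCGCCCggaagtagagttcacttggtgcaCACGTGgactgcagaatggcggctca
Grwd1: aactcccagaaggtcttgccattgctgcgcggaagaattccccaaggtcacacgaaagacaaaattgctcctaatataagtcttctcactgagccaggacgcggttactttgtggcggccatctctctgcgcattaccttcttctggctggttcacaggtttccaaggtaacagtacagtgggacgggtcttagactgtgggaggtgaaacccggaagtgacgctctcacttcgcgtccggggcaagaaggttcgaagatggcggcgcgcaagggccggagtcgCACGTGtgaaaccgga
CACGTG was in 5 of the 27 promoters (18.5%), those of Tsr1, Grwd1, Timm10, Runx1 and Kcnn4, and in 7.24% of all 27025. GGGCGG was in 14 of 27 (51.9%) and in 35.9% of all. The AP-1 letters TGANTCA, the CRE letters TGACGTCA and the TATA letters TATAAA were each in 1 of 27, against 7.93%, 1.88% and 14.2% of all. All motifs were searched on both strands. None of these motifs contains another. The 27025 include genes that were not tested here, so these shares are not a like baseline for the 27, and enrichment was not tested. A match says only that the letters are in this window.

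Called genes linked to interferon are given next. Slfn2, of the Schlafen family, had 6.94, 5.01 and 6.95 CPM with A-241, 17.5, 15.8 and 21.6 CPM with A-485 and 11.2, 9.32 and 12.1 CPM with DMSO. It was the other gene, beside Grwd1, with A-485 above all DMSO libraries and A-241 below them, and the inhibitors differed 2.90-fold (95% interval 2.12 to 3.96; adjusted p = 0.00126, edgeR). Ifi211, of the p200 family of DNA-binding proteins, and the surface antigen gene Ly6a were 1.90- and 2.56-fold lower, again picked with their values in view. Slfn2, Ifi211 and Ly6a have close paralogues, among which reads may be divided. Of the 24 genes of the interferon pathway, measured here without IFNγ, 0 passed by edgeR (0.351% of all genes were lower and 0.0167% higher). Of the 24, 11 were below 0 (49.1% of all genes) and the median was 0.02. Ifit1 had -1.13 (adjusted p = 0.0247, edgeR), with 2.31, 3.61 and 2.74 CPM against 7.59, 5.15 and 6.27 CPM. Cd274, which encodes the checkpoint ligand PD-L1, held 4 reads over the A-241 libraries and 0 over the A-485 libraries, too few for a comparison.

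Cpeb4 and Hexim1 were the genes called higher with A-241. Cpeb4 (chr11:31872211-31935634, plus strand) encodes a protein that binds mRNAs and regulates their translation. It had 14.7, 18.4 and 15.0 CPM with A-241, 6.53, 6.30 and 6.27 CPM with A-485 and 5.69, 7.74 and 6.22 CPM with DMSO. The A-485 libraries overlapped those of DMSO, and A-241 was 2.51-fold higher than A-485 (95% interval 1.89 to 3.35; adjusted p = 0.00239, edgeR). Hexim1 (chr11:103116231-103119725, plus strand) had 63.9, 70.3 and 68.9 CPM with A-241, 38.7, 40.1 and 38.1 CPM with A-485 and 21.1, 22.3 and 22.1 CPM with DMSO. Its 3 groups were in order without overlap, the opposite of the order in most lower genes, and A-241 was 1.74-fold higher than A-485 (95% interval 1.43 to 2.12; adjusted p = 0.00713, edgeR). The call for Hexim1 was lost with any 1 of the 6 libraries left out, and that for Cpeb4 with 4 of the 6. Ranbp6, chosen after its values were seen, came next, with 1.23 (adjusted p = 0.01, edgeR, just over the threshold).

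The starts of both genes are shown as they are the 2 genes called higher. Capitals mark GGGCGG on either strand, which begins 145 bases before the start of Hexim1 and 82 before that of Cpeb4. These are RefSeq starts, and that of Cpeb4 lies upstream of the gene's start in the annotation used above, that of Hexim1 downstream of it. The Hexim1 window is chr11:103116075-103116374 and that of Cpeb4 chr11:31870690-31870989, both on the plus strand.
Hexim1: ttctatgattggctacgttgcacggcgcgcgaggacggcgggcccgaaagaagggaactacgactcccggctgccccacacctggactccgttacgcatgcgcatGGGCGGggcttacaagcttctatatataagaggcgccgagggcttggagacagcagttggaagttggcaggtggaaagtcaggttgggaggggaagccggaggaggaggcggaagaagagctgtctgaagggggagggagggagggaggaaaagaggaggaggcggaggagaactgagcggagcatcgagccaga
Cpeb4: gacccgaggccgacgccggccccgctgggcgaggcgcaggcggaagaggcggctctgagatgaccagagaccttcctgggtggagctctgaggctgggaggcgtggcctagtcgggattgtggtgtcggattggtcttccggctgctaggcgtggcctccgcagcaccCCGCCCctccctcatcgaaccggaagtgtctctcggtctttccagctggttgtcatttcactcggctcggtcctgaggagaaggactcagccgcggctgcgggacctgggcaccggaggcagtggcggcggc

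Other components of the machinery and further pathways were read as lists. Over all genes tested 0.351% were called lower and 0.0167% higher. In lists this short 0 calls is near that share and is no result about their genes. Of 12 genes of P-TEFb and its regulators, Hexim1 was higher (0.0167% of all genes were) and 11 did not pass, with a median of 0.06. Of 12 acetyltransferases tested 0 passed by edgeR, and their log2 fold changes were between -0.22 and 0.33. The genes of the inhibited enzymes were Ep300, with 26.7, 32.6 and 36.9 CPM against 25.8, 29.0 and 26.0 CPM and a log2 fold change of 0.25 (95% interval -0.06 to 0.57), and Crebbp, with 0.12 (95% interval -0.18 to 0.42). Libraries of the inhibitors overlapped in both genes. Of 17 deacetylases and bromodomain proteins tested 0 passed, with a median of 0.00. No gene passed among 10 of ERK pathway feedback (median 0.10), 11 targets of YAP and TEAD (-0.17), 15 targets of p53 (-0.28), 17 receptor tyrosine kinases and ligands (0.04), 20 of cholesterol and fatty acid synthesis (-0.29) and 12 housekeeping references (-0.04). In the cholesterol and fatty acid list 17 of 20 were below 0 (49.1% of all genes) and 8 were separated (11.3%), led by the desaturases Scd1 (-0.83) and Scd2 (-0.80; adjusted p = 0.0167 and 0.0887, edgeR). With only the 6 libraries fitted, 2 genes of the cholesterol list, 1 each of the ERK, YAP, p53 and receptor lists and 1 of the Wnt and Notch list were lower, and 1 of the receptor list was higher. In that fit 1.00% of all genes tested were lower and 0.0905% higher. At an adjusted p between 0.01 and 0.05 there were 58 further lower genes and 11 further higher ones.

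**Figure D3:**
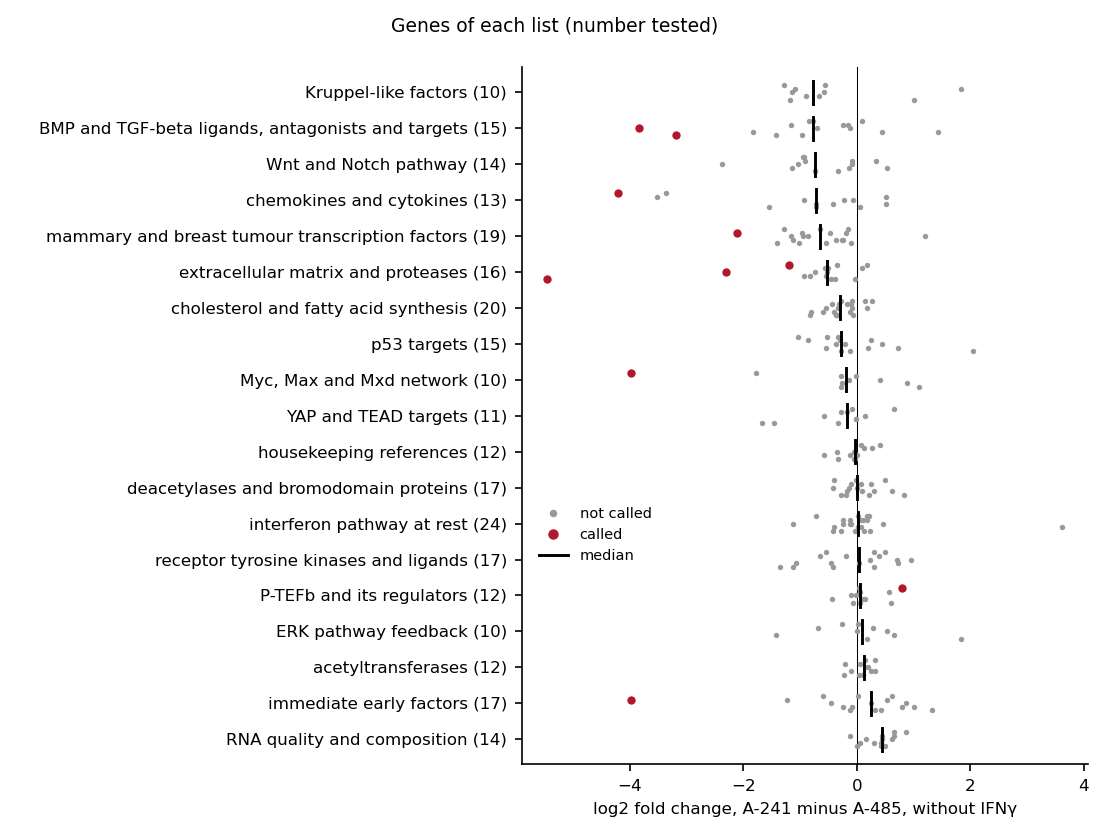
Log2 fold changes of A-241 minus A-485 without IFNγ (x axis) for the tested genes of 19 lists (rows, number tested in parentheses), with called genes in red and a black tick at each list's median. Medians run from -0.77 for the Krüppel-like factors to 0.44 for RNA quality and composition genes, and red points are in 7 lists.

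Beside DMSO, the 42 lower genes were mostly at intermediate levels with A-485. This is a description, since the A-241 and A-485 libraries are those that chose the genes and DMSO replicate 3 stood apart from the other DMSO libraries (root mean square log2 deviation 0.731, where the 6 libraries compared had 0.226 to 0.301). All A-241 libraries lay below all DMSO libraries in 42 of 42 genes (13.4% of all genes tested) and all A-485 libraries in 25 (8.84%). Without DMSO replicate 3, a choice made after the data were seen, these were 42 and 32. The means were in the order DMSO, A-485, A-241 in 35 of 42. That A-241 was below A-485 was set by the choice of the genes, so the share over all genes (26.3%) is not a like baseline. The exceptions were Cxcl5, Tfap4, Slfn2, Ly6a, Hk2, Pprc1 and Grwd1. Cxcl5, Tfap4, Hk2 and Pprc1 were exceptions only with DMSO replicate 3 in the mean. Of the mean of DMSO replicates 1 and 2, A-485 gave 79.8% for Cxcl5, 86.5% for Tfap4, 96.5% for Hk2 and 99.1% for Pprc1. By that measure Eif1a, at 102.7%, became an exception, and Slfn2, Ly6a and Grwd1 stayed exceptions. The median level of the 42 genes was 15.8% of DMSO with A-241 and 59.3% with A-485, with ranges of 1.26% to 67.5% and 26.3% to 169%.

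The same inhibitors were compared in 6 other libraries, those with IFNγ, which share no library with the 6 above but share the fit. There all 42 lower genes had a log2 fold change below 0 (49.6% of all genes did), and in 40 the A-241+IFNγ libraries lay below the A-485+IFNγ libraries (11.8% of all genes). Fzd7 and Ripor2 were the genes with overlap. Of the 42, 19 passed the test again, where 0.510% of all genes (61) were called lower. These 19 are 45.2% of the 42 and 31.1% of the 61, and they included Has2, Sostdc1, Fst, Adamts1, Tfap4, Thbs1, Trib2, Runx1, Kcnn4, Nkd2 and Tsr1. The median of the 42 was -1.32 with IFNγ and -1.83 without. Hexim1 was called higher with IFNγ too (0.00836% of all genes were), with a log2 fold change of 1.02 (SE 0.14, adjusted p = 0.00101, edgeR), and Cpeb4 had 0.77 (adjusted p = 0.0793, edgeR).

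**Figure D4:**
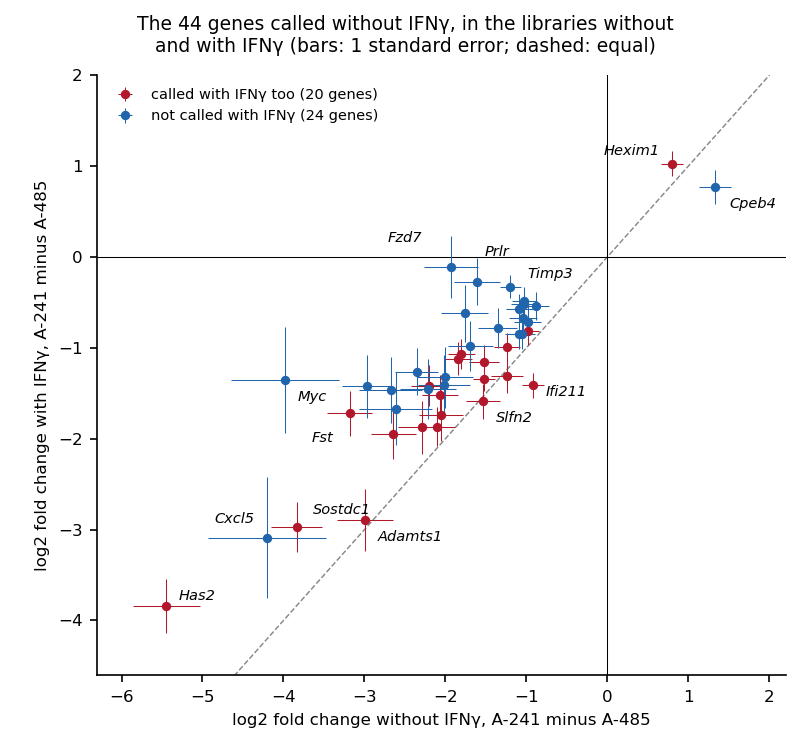
Log2 fold changes of A-241 minus A-485 for the 44 genes called without IFNγ, in the libraries without IFNγ (x axis) and with IFNγ (y axis), with bars of 1 standard error and the 20 genes called in both in red. All 42 lower genes are below 0 on both axes, and 39 of them lie above the dashed line of equal values.

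Some members differed in size between the settings. Has2 had 0.653, 0.978 and 0.619 CPM with A-241 and IFNγ against 10.3, 12.2 and 11.4 CPM with A-485 and IFNγ, and a log2 fold change of -3.84. Timp3 had 189, 185 and 186 CPM against 242, 237 and 225 CPM, which is -0.33 with IFNγ (adjusted p = 0.521, edgeR) where it was -1.2 without. Myc had 1.3, 1.1 and 1.2 CPM against 3.64, 1.63 and 4.18 CPM, and -1.35 (adjusted p = 0.669, edgeR). Ifi211 had -0.92 without IFNγ and -1.41 with it, at 47.4, 48.4 and 50.1 CPM against 127, 124 and 137 CPM with IFNγ. Slfn2 and Rin2 were also further from 0 with IFNγ, but by little (-1.53 and -1.24 without it, -1.59 and -1.31 with it). The difference of the inhibitor contrast between IFNγ and no IFNγ was called for 0 genes by edgeR, and by DESeq2 for 2. At an unadjusted p under 0.05 there were 278 genes (2.32%), among them 16 of the 42, with the lowest adjusted p of the 42 at 0.884 (Timp3). Since the 42 were chosen on 1 side of that difference, nothing is read from the 16 or from the 39 that were nearer 0 with IFNγ. Of the 61 genes chosen with IFNγ, 18 were nearer 0 there and the others nearer 0 without it.

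Genes chosen in the IFNγ libraries were chosen without the 6 libraries compared here, other than through the shared estimate of the spread. The 3 sets below share libraries and genes with each other. The 61 genes lower with A-241+IFNγ than A-485+IFNγ had a median of -1.06 without IFNγ, and 58 were below 0. The 64 genes lower with A-485+IFNγ than with IFNγ alone (0.535% of genes) had a median of -0.74 between the inhibitors without IFNγ, and 56 were below 0 and 11 called lower. The 424 genes lower with A-241+IFNγ than with IFNγ alone (3.54%) had a median of -0.65, with 377 below 0, 39 called lower and 0 higher. Over all genes 49.1% were below 0 and 0.351% called lower without IFNγ.

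Composition of the libraries was measured beside these results. Transcripts of the mitochondrial genome took 1.75% to 2.23% of counts with A-241 and 1.09% to 1.51% with A-485, without overlap (exact permutation test, two-sided p = 0.1, the smallest that 3 against 3 can give). The range with DMSO was 1.47% to 1.94%, and with IFNγ it was 1.53% to 1.79% with A-241 and 1.71% to 2.09% with A-485. In the list of 14 RNA quality genes 0 passed (0.351% of all genes were lower and 0.0167% higher). Of the 14, 1 was below 0 (49.1% of all genes), 7 were separated with A-241 higher (11.2% of all genes) and the median was 0.44. Leaving these genes out before scaling gave the same 42 and 2 called genes. Gm42418, a locus rich in ribosomal RNA reads, took 9.01% to 15.2% with A-241 and 9.56% to 16.2% with A-485.

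Markers of AT3 cells were present: 8 of 10 epithelial markers had more than 3 counts in all 6 libraries, with a summed level of 1127 to 1136 CPM with A-241 and 1268 to 1324 CPM with A-485 (for markers scaled by library total alone, without the TMM factor), as did 7 of 8 mesenchymal markers, with 560 to 649 CPM and 685 to 743 CPM. For the 8 leukocyte markers 1 had more than 3 counts in all 6, Adgre1 was at 0 and the sum was 8.55 to 13.2 CPM with A-241 and 13.6 to 42.4 CPM with A-485. The leukocyte gene Ptprc held 12, 6 and 2 reads with A-241 and 37, 1 and 73 reads with A-485, with overlap. Of endothelial, fibroblast and adipocyte markers 0 of 4, 1 of 4 and 0 of 3 had more than 3 counts in all 6, with sums of at most 3.30, 7.07 and 0 CPM, and Cdh5, Tek, Lum, Adipoq, Plin1 and Cidec were at 0. The part of these shares in the differences above was not tested. In bulk RNA, fewer cells of a type and less RNA per cell cannot be told apart.

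Of the 42 lower genes, 17 passed with each of the 6 libraries left out in turn, and 12 were lost whichever of the 6 was left out. The 17 included Has2, Sostdc1, Fst, Adamts1, Tfap4, Sgk1, Thbs1, Trib2, Runx1, Tsc22d1, Kcnn4, Nkd2, Irf2bp2, Trps1, Tsr1 and Timp3. The number of genes called lower was 18 without A-241 replicate 1 or 2, 19 without A-241 replicate 3 or A-485 replicate 1, and 25 and 26 without A-485 replicate 2 or 3. With 1 library left out, the log2 fold change was between -4.88 and -3.44 for Myc, -4.26 and -3.40 for Sostdc1 and -5.80 and -4.95 for Has2, the genes with the fewest reads with A-241. It was between -3.34 and -3.02 for Fst and -1.27 and -1.16 for Timp3. Of the 42, 11 genes share exon bases with another gene and so may share reads with it.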

How the data were processed

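RNA of AT3 cells was sequenced as QuantSeq 3′ libraries, 3 for each of 6 conditions. The deposited values are raw counts of reads per gene; per the submitters' processing notes and the study's methods the authors used bcl2fastq 2.17.1.14, cutadapt 1.7, HISAT2 2.1.0 on mm10 and featureCounts, with a read on overlapping genes given to every one, and strand not used. Of 43629 identifiers, 42548 (97.5%) were matched to GENCODE names, and the others held 0.403% of counts.

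Genes kept by filterByExpr (11964) were fitted with edgeR 4.0.16 in R 4.3.3: TMM factors, a mean per condition over all 18 libraries, the quasi-likelihood test and Benjamini-Hochberg adjustment over all genes. A standard error is the log2 fold change divided by the square root of F, and intervals are 95%. The fit was tested on simulated data with 200 changed genes, where 69.6% of genes moved by a log2 of 2 and 9.09% of those moved by 1 were called, and 0 of the unchanged genes. Each simulated gene had the same spread in every library, so none stood apart as DMSO replicate 3 and IFNγ replicate 2 did. These rates may therefore not hold for the data. DESeq2 1.42.0 and limma 3.58.1 served as alternatives.

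The named genes were the 20 largest decreases and 10 largest increases among called genes whose libraries were separated and whose mean count in the group with more was 50 or over, called members of each list (with up to 3 more by smallest p where a list had 0 or 1), and Ep300, Crebbp, Hexim1 and Myc. The members and lists were chosen with earlier results of these data known. The values of 1 called gene are not reported here.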

Additional observations from a re-analysis of the deposited data

How the results depend on the processing

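No called gene changed sign under any alternative that gave it a value; with at least 10 counts in every library, 11 of the 44 had none. Without IFNγ the numbers lower and higher with A-241, 42 and 2, were 26 and 2 with total counts as the scaling, 39 and 1 with no filter on low counts, 109 and 16 by DESeq2, 26 and 2 by limma-voom and 264 and 84 by limma-voom with quality weights. They were 111 and 10 with only the groups compared, 180 and 30 without DMSO replicate 3 and IFNγ replicate 2, the 2 libraries that stand apart, 100 and 13 at an adjusted p under 0.05, 38 and 1 with a fold above 2 also asked, and 554 and 421 at an unadjusted p under 0.05. Leaving out 1 of the 6 libraries gave 18 to 26 lower and 0 to 1 higher.

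With IFNγ the numbers, 61 and 1, were 52 and 2 with total counts, 41 and 2 with at least 10 counts in every library, 108 and 3 by DESeq2, 64 and 2 by limma-voom, 185 and 15 with quality weights, 138 and 4 with only the groups compared, 150 and 7 without the libraries that stand apart, 102 and 3 at an adjusted p under 0.05 and 536 and 242 at an unadjusted p under 0.05. Leaving out 1 library gave 17 to 41 lower and 1 higher. The difference of the contrasts, 0 genes, was 2 by DESeq2, 4 with quality weights, 1 with only the groups compared, 1 without the libraries that stand apart, 1 at an adjusted p under 0.05, 278 at an unadjusted p under 0.05 and 0 to 1 with 1 library left out. The cause of these shifts was not tested.

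With the replicate number as a block, 28 genes were lower and 1 higher without IFNγ, and 50 and 2 with it. Samples of A-241 and A-485 with the same number had correlations of -0.14, 0.17 and -0.22, so the numbers were not taken to pair the samples. Without DMSO replicate 3, a choice made after seeing the data, A-485 lay below DMSO in 32 of the 42 genes, where it was 25. Depth limits Has2, Myc and Sostdc1, with 2, 6 and 12 reads over the A-241 libraries.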
